A study of Mus musculus with 4 samples.

Results

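Genes of epithelial junctions, desmosomes and keratins were compared between Rax::GFP- and Rax::GFP+ cells, sorted at day 4.5 from aggregates of differentiating mouse embryonic stem cells (ESCs). The set held 39 of the 18194 genes on the arrays, chosen by name from tight junctions, desmosomes, keratins and the proteases, splicing regulators and transcription factors of epithelia, and 72 of 45101 probe sets were annotated to one of them alone. Both groups came from the same Rax::GFP reporter ESC line, grown as floating aggregates in serum-free SFEBq culture (a quick reaggregation method that yields neuroectoderm). GFP- cells were the cells without reporter signal, and GFP+ cells were those in which the gene Rax, a marker of retinal and rostral hypothalamic progenitors, drove it. Each group had 2 arrays, described by the study as biological duplicates, and every array held RNA of cells pooled from many aggregates. The comparison asks how the 2 sorted groups differed in these genes by structural class. The genes were chosen with earlier results of these data known, so their counts are no test of the set. The GFP- gate is defined only by the lack of a signal, so it can hold cells of any type, and these need not lack Rax RNA. In such bulk samples, fewer cells of a type and less RNA per cell cannot be told apart.

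Epithelial cells are held together by adherens junctions built on cadherins, by tight junctions whose strands are made of claudins, and by desmosomes that tie the keratin filaments of neighbouring cells to each other. Pluripotent cells, the epiblast and early endoderm express E-cadherin, and the epiblast and early endoderm are epithelia. When the neural plate forms, its cells stay epithelial but exchange E-cadherin for N-cadherin and lose many of the claudins that seal other epithelia. Zeb and Snai proteins repress many epithelial genes by binding E-boxes in their promoters, while grainyhead-like factors and Ovol2 favour the epithelial programme.

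The 39 genes were mostly higher in GFP- cells. Each value is the log2 signal that the RMA method gives for a probe set, and each gene was taken by the probe set with the highest mean over the 4 arrays. In a limma fit of GFP- minus GFP+ over all probe sets, 24 of the 39 genes were higher in GFP- cells at an adjusted p under 0.05, where 5.4% of all genes were. Grhl3 alone was lower, where 2.63% of all genes were, and 14 did not pass. Of those that were higher, 13 differed by more than 2-fold, as did 380 of all 18194 genes. The median log2 difference of the 39 genes was 0.74, beside 0.05 over all genes. Both GFP- arrays lay above both GFP+ arrays for 36 of the genes, where 38.4% of all genes did so, and below them for Grhl3 and Cldn12, where 21.7% of all genes did. Only Tjp1 had groups that overlapped. Without GFP- replicate 1 or GFP- replicate 2 limma lost all of its calls, among the 39 genes as over all probe sets. Without GFP+ replicate 1 or GFP+ replicate 2 only part of the calls were kept, that of Grhl3 among them in both. All the genes that passed in these 2 fits had passed over the 4 arrays.

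**Figure D1:**
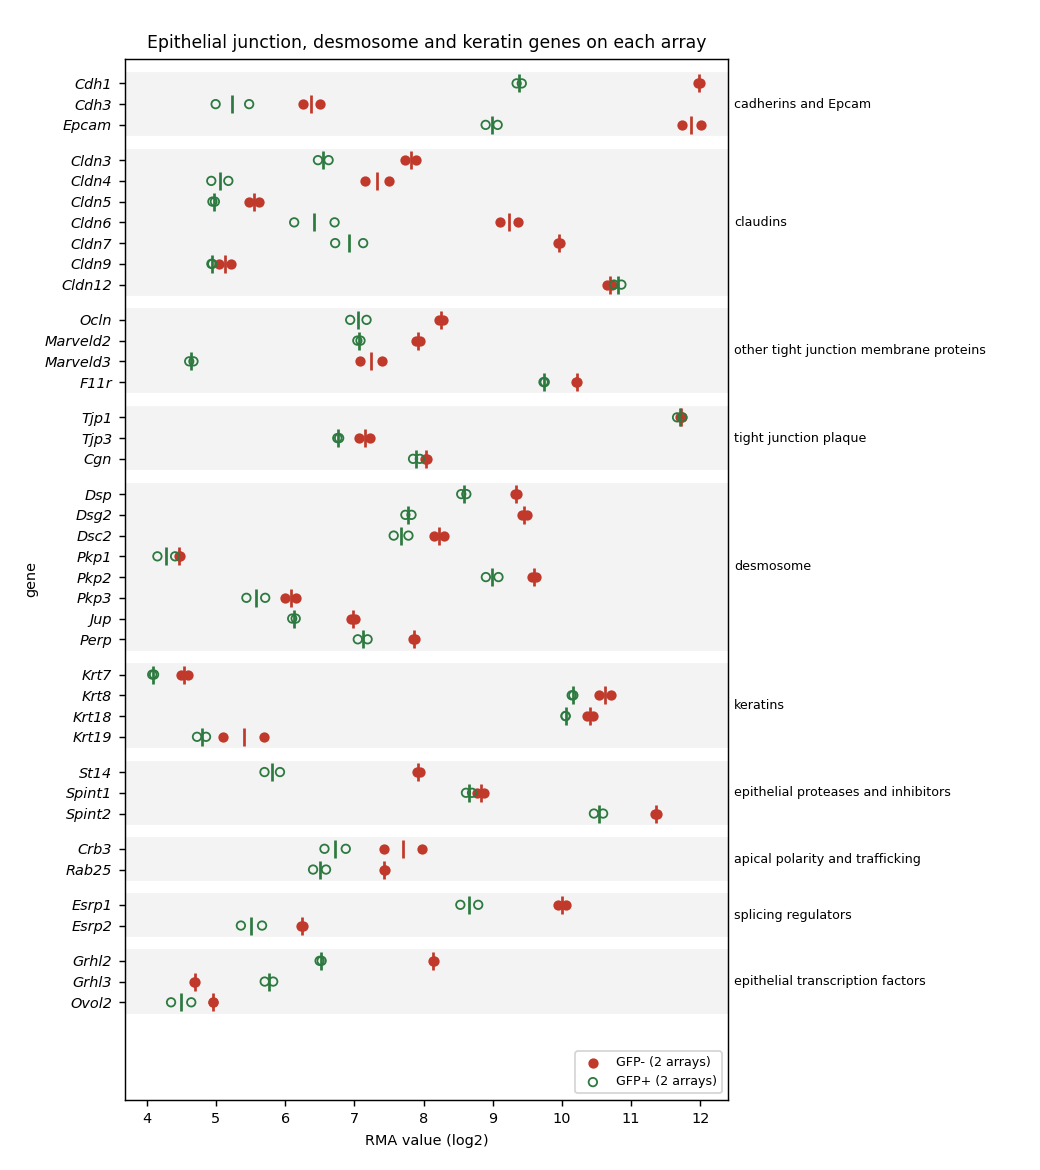
RMA value (log2, x axis) of the 39 genes (y axis, by structural class) on the 2 GFP- arrays (filled red circles) and the 2 GFP+ arrays (open green circles), with short vertical bars for the group means. Both red circles lie to the right of both green ones for 36 genes, to the left for Grhl3 and Cldn12, and among them for Tjp1.

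The gate was checked against Rax and against markers of other cell types. Rax was at 8.58 and 8.88 on the GFP- arrays and at 10.70 and 10.86 on the GFP+ arrays (log2 difference -2.05, limma adjusted p = 0.00785). Its values on the GFP- arrays lay above the medians of these arrays, 5.84 and 5.86. Whether Rax RNA was absent from GFP- cells was not tested. Of 8 pluripotency markers 6 were higher in GFP- cells, with the largest log2 differences in Nanog (3.51), Tdgf1 (3.10) and Dppa5a (3.01), and their summed signal was 10138 to 10588 in GFP- and 1570 to 1623 in GFP+ cells. Of 10 endoderm markers 7 were higher, with the largest log2 differences in Sox17 (3.09), Ttr (2.48) and Gata6 (2.23), and with sums of 4105 to 4621 in GFP- and 904.2 to 1241 in GFP+ cells. Of 8 trophoblast markers 2 were higher, Eomes (log2 difference 2.48) and Tfap2c (0.86, not kept without GFP+ replicate 1). The other 6 did not pass, among them Gata3, which differed the other way (-0.52). The sums of the 8 were 654.5 to 734.3 in GFP- and 328.7 to 372.6 in GFP+ cells. Eomes, at 8.65 and 8.30 on the GFP- arrays, was the brightest of the 8 there and weighed most in the GFP- sums. Of 8 markers of surface ectoderm 0 passed limma and 0 had an unadjusted p under 0.05, with sums of 362.3 to 374.9 in GFP- and 344.4 to 359.8 in GFP+ cells. Of 8 neural markers 5 were lower in GFP- cells, with the largest log2 differences in Lhx2 (-1.80), Pax6 (-1.45) and Hes5 (-1.07). Sox2 (-0.24), Nes (-0.08) and Otx2 (-0.06) did not pass. The sums of the neural markers were 18994 to 19289 in GFP- and 27738 to 27766 in GFP+ cells. Most markers of pluripotent cells and of endoderm were thus higher in GFP- cells, as were most junction genes. No marker was at 0, since RMA values have no true zero. Their part in the results below was not tested. The 2 GFP+ arrays differed in endoderm markers, with all 10 higher on replicate 2 than on replicate 1, while 16 of the 39 junction genes and 55.7% of all genes were.

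The promoters of the genes are shown here because many of them share an E-box. Promoter sequences were taken from RefSeq (GRCm38.p6) as the 300 bases that run from 250 before the gene start to 50 after it. They were given for 24 of the 39 genes, in 31 sequences. The E-box CAGGTG, or CACCTG on the other strand, to which Zeb and Snai factors bind, lay in the promoter of 17 of these 24 genes (70.8%), where 22.9% of the 14453 array genes with a promoter and 20.2% of all 32851 promoters held it. Of the 14 genes higher in GFP- cells with a promoter sequence, 12 held it, as did Grhl3 and 4 of 9 genes that did not pass. The grainyhead site AACCGGTT lay in 0 of the 24 and in 0.242% of array genes. AACCNGTT lay in 3 (12.5%, against 2.30% of array genes), and AACNNGTT, which includes both, in 3 (12.5%, against 4.30%). The GC box GGGCGG, searched as a motif of many promoters, lay in 19 (79.2%, against 57.3%). These 5 motifs were all that were searched, on both strands, and a match is a run of letters and not a known binding site. The genes and the motifs were chosen with earlier results known, so these shares are not a test.

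The promoters below are those of 4 genes with large differences toward GFP- cells, of Grhl3, which differed the other way, and of Cldn12, which did not pass and had no E-box. Capitals mark the E-box on either strand, and each sequence runs 5′ to 3′ on the strand of its gene.
Cldn6, chr17:23679115-23679414, + strand: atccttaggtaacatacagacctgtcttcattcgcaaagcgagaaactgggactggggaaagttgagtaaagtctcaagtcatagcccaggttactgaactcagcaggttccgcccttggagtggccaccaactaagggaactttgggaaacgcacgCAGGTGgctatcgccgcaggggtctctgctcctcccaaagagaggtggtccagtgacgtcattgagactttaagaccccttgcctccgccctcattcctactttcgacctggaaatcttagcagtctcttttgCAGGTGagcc
Cldn4, chr5:134946885-134947184, - strand: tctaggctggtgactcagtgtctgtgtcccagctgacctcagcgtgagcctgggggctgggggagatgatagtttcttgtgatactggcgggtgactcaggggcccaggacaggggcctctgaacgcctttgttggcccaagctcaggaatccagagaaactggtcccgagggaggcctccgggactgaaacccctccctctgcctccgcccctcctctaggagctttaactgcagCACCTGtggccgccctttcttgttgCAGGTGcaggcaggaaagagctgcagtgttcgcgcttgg
Epcam, chr17:87635729-87636028, + strand: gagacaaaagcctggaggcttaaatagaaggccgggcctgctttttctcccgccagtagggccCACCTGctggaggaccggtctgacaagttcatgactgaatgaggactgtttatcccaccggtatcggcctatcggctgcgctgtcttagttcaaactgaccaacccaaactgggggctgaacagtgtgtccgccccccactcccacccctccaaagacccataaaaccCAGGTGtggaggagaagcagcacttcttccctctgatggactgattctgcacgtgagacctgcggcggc
Cldn7, chr11:69965171-69965470, + strand: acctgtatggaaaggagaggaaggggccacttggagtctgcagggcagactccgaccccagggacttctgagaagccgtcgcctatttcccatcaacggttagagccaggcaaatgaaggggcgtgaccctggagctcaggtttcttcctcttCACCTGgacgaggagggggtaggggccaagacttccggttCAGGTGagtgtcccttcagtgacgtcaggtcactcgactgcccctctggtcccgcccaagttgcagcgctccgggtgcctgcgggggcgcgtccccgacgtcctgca
Grhl3, chr4:135573583-135573882, - strand: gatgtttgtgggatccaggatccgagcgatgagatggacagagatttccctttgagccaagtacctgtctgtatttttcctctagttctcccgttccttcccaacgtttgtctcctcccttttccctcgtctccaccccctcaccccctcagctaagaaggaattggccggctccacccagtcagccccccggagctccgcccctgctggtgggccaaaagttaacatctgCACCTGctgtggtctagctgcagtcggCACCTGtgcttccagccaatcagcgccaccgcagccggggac
Cldn12, chr5:5514740-5515039, - strand: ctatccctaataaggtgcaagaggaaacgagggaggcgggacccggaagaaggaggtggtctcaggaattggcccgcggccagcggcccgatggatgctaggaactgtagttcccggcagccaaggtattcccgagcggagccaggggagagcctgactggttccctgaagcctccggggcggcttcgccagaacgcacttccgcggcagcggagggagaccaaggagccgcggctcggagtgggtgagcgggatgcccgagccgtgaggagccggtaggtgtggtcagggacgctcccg
Cldn6, Cldn4, Epcam, Cldn7 and Grhl3 each held 2 E-boxes. Relative to the gene start they began at -14 and 12 in Cldn4, at -93 and 41 in Cldn6, at -187 and -19 in Epcam, at -97 and -57 in Cldn7 and at -19 and 9 in Grhl3. Another start of Cldn7, which lies upstream, held 0, and the other 2 starts of Cldn12 held 0 as well. Crb3, which did not pass by its brightest probe set, had the most, with 4, and Spint2 had 3. Jup and Cldn5 were higher in GFP- cells and held 0. Tjp3, Krt8 and Krt18 did not pass, and each promoter given for them held 1.

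**Figure D2:**
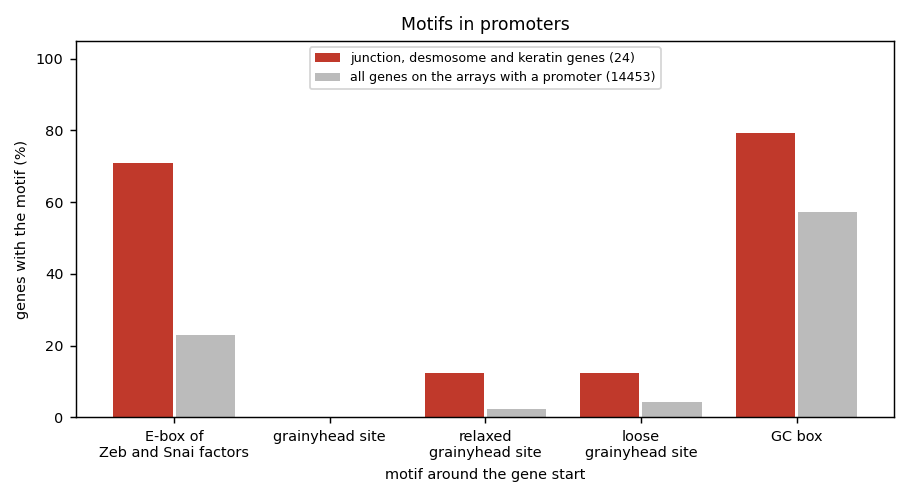
Share of genes (y axis, %) whose promoter holds each of 5 motifs (x axis), for the 24 junction, desmosome and keratin genes with a promoter sequence (red bars) and for all 14453 array genes with one (grey bars). The E-box of Zeb and Snai factors was found in 70.8% of the 24 and 22.9% of all genes.

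The cadherins Cdh1 and Cdh3 and the adhesion gene Epcam were all higher in GFP- cells. Cdh1, which encodes E-cadherin, the adhesion molecule of adherens junctions, was at 11.99 and 11.97 on the GFP- arrays and at 9.42 and 9.35 on the GFP+ arrays. Its log2 difference of 2.60 (SE, the standard error, 0.07, limma adjusted p = 0.0044) is a 6.06-fold higher signal, with replicates that lay within 0.1 of each other in both groups. Epcam, an adhesion molecule of epithelia and ESCs, was at 11.74 and 12.003 in GFP- and at 8.90 and 9.07 in GFP+ cells, a 7.39-fold difference (log2 2.89, SE 0.13, adjusted p = 0.00551). Cdh3, the gene of P-cadherin, was at 6.50 and 6.25 in GFP- and 5.480 and 4.995 in GFP+ cells (log2 difference 1.14, adjusted p = 0.0443). The Cdh3 call was the least stable of the class and was lost without GFP+ replicate 1 (adjusted p = 0.0515) or replicate 2 (0.0588). Its other probe set had a log2 difference of 0.08 (adjusted p = 0.768), and there the groups overlapped. Cdh3 and Cdh1 are neighbours on chromosome 8. In the other direction, Cdh2, the gene of N-cadherin, was at 11.61 and 11.31 in GFP- and at 12.44 and 12.40 in GFP+ cells, and it is also one of the neural markers.

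The strands of tight junctions are made of claudins, and of the 7 in the set 5 had a higher signal in GFP- cells while 2 did not pass. Cldn7 was at 9.94 and 9.98 on the GFP- arrays and at 6.72 and 7.13 on the GFP+ arrays, an 8.18-fold difference (log2 3.03, SE 0.15, limma adjusted p = 0.00616). Cldn6, a claudin of early embryonic epithelia, was at 9.10 and 9.36 in GFP- and at 6.13 and 6.71 in GFP+ cells (log2 difference 2.81, SE 0.22, adjusted p = 0.0110). Cldn4, a barrier claudin, was at 7.16 and 7.50 in GFP- and at 5.18 and 4.93 in GFP+ cells (log2 difference 2.28, SE 0.16, adjusted p = 0.00868). In all 3 genes the gap between the groups was several times the gap between the arrays of a group. Cldn3 was at 7.73 and 7.90 in GFP- and at 6.63 and 6.47 in GFP+ cells (log2 difference 1.26, SE 0.10, adjusted p = 0.0113). Cldn5, known from the tight junctions of blood vessels, was at 5.47 and 5.63 in GFP- and at 4.98 and 4.95 in GFP+ cells (log2 difference 0.58, adjusted p = 0.0354), and did not pass without GFP+ replicate 1 (0.117) or replicate 2 (0.0861). Cldn9 was at 5.05 and 5.21 in GFP- and at 4.95 and 4.93 in GFP+ cells (log2 difference 0.19, adjusted p = 0.268), and its other probe set lay on the other side, at -0.54 (adjusted p = 0.0651). Cldn12 was at 10.73 and 10.65 in GFP- and at 10.86 and 10.75 in GFP+ cells (log2 difference -0.12, adjusted p = 0.437), with its other probe set at -0.14. The claudins therefore ranged from Cldn7, the largest difference of the 39 genes, to small differences such as that of Cldn12. Cldn6 and Cldn9 are direct neighbours on chromosome 17 and had unlike values, while the neighbours Cldn4 and Cldn3 on chromosome 5 were both higher. Whether neighbours differ from each other was not tested.

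The other membrane proteins of tight junctions were all higher in GFP- cells. Marveld3, of the same protein family as occludin, was at 7.08 and 7.40 on the GFP- arrays and at 4.68 and 4.61 on the GFP+ arrays (log2 difference 2.60, SE 0.13, limma adjusted p = 0.00611). The Marveld3 values in GFP+ cells are under 5, and whether they lie above background was not tested. Ocln, which encodes occludin, was at 8.23 and 8.28 in GFP- and at 7.18 and 6.94 in GFP+ cells (log2 difference 1.20, SE 0.11, adjusted p = 0.0131). Marveld2, the gene of tricellulin at the corners where cells meet, was at 7.89 and 7.95 in GFP- and at 7.04 and 7.09 in GFP+ cells (log2 difference 0.85, adjusted p = 0.0124). Ocln and Marveld2 are neighbours on chromosome 13. F11r, the gene of a junctional adhesion molecule, differed least, at 10.21 and 10.21 in GFP- and 9.75 and 9.73 in GFP+ cells (log2 difference 0.47, adjusted p = 0.0346). Its arrays agreed to within 0.1 in each group, yet it did not pass without GFP+ replicate 1 (0.116) or replicate 2 (0.0828), and Marveld2 did not pass without GFP+ replicate 1 (0.0572).

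The 3 plaque genes of the set, which encode proteins under the tight junction, did not pass. Tjp1, which encodes a scaffold that binds claudins inside the cell and is also present in neural epithelium, was at 11.70 and 11.73 in GFP- and at 11.66 and 11.74 in GFP+ cells (log2 difference 0.02, SE 0.07, limma adjusted p = 0.927). The groups overlapped, and the sign turned without GFP+ replicate 1 (-0.02). Cgn, the gene of cingulin, was at 8.02 and 8.05 in GFP- and at 7.95 and 7.85 in GFP+ cells (log2 difference 0.14, adjusted p = 0.341). Tjp3, a scaffold related to Tjp1, was at 7.07 and 7.23 in GFP- and at 6.78 and 6.75 in GFP+ cells (log2 difference 0.38, adjusted p = 0.0776). It passed when the probe sets of each gene were averaged (limma adjusted p = 0.0384). The median log2 difference was 0.14 for the 3 plaque genes, beside 1.26 for the claudins and 1.03 for the other membrane proteins. The difference between the classes was not tested.

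**Figure D3:**
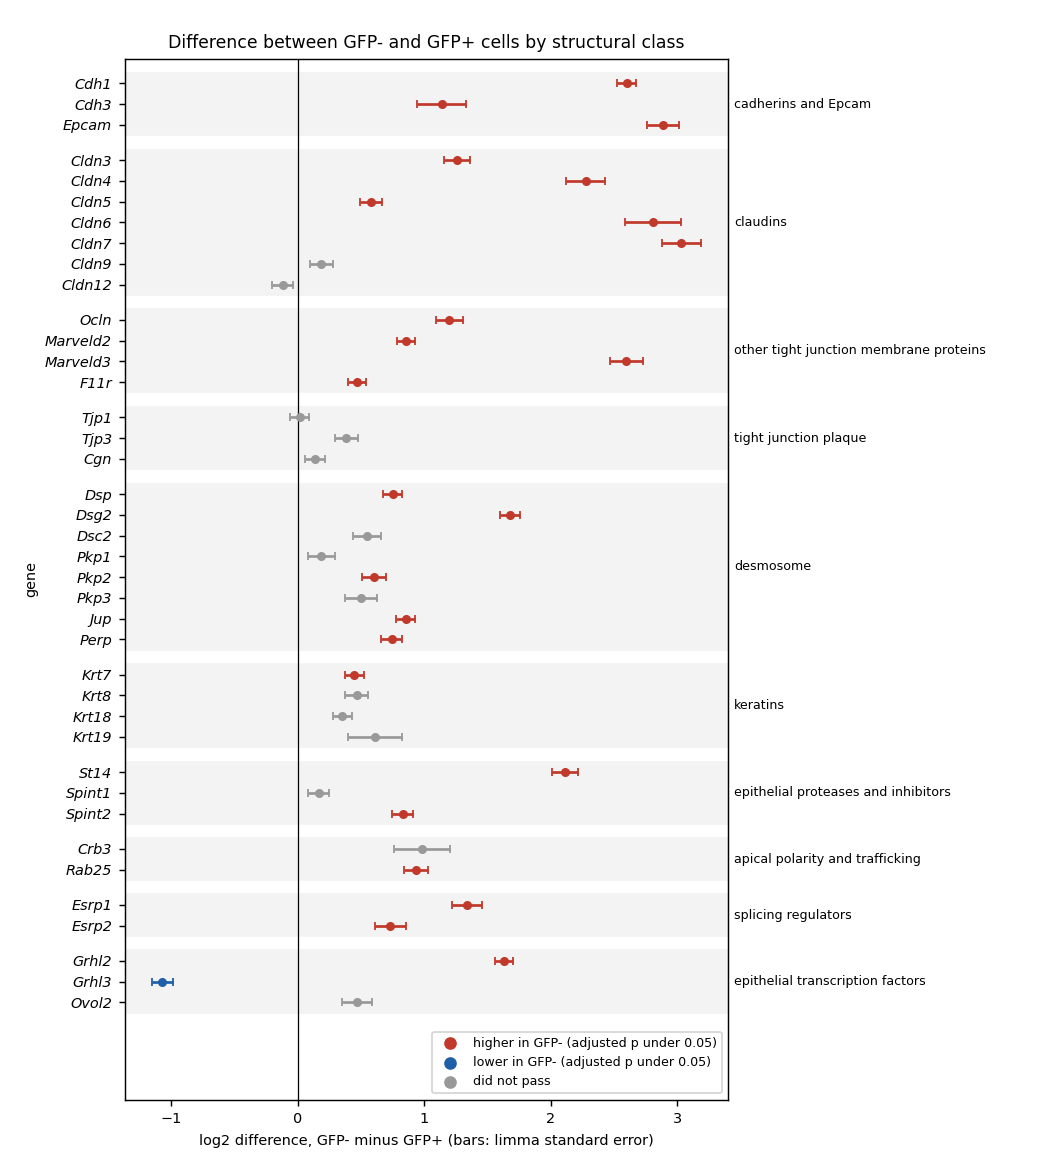
Difference between GFP- and GFP+ cells on the log2 scale (GFP- minus GFP+, x axis) with limma's SE for the 39 genes (y axis, by structural class), red where higher and blue where lower in GFP- cells at an adjusted p under 0.05, and grey otherwise. Claudin differences run from -0.12 to 3.03, the 3 plaque genes stay between 0.02 and 0.38, and Grhl3 is the single blue point.

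In the desmosome class, 5 of 8 genes had a higher signal in GFP- cells, mostly by less than 2-fold, and 0 passed in the other direction. Dsg2, a desmosomal cadherin of simple epithelia, was at 9.49 and 9.43 on the GFP- arrays and at 7.74 and 7.83 on the GFP+ arrays (log2 difference 1.68, SE 0.08, limma adjusted p = 0.00551). It was the one gene of the class that differed by more than 2-fold. Jup, the gene of plakoglobin, which joins desmosomes and adherens junctions, was at 6.95 and 7.01 in GFP- and 6.15 and 6.10 in GFP+ cells (log2 difference 0.85, adjusted p = 0.0127). Dsp, the gene of desmoplakin, which anchors keratin filaments, was at 9.34 and 9.32 in GFP- and 8.62 and 8.54 in GFP+ cells (log2 difference 0.75, adjusted p = 0.0157). Perp, a membrane protein of desmosomes, was at 7.87 and 7.85 in GFP- and 7.19 and 7.05 in GFP+ cells (log2 difference 0.74, adjusted p = 0.0207). These 3 genes thus moved by about the same amount, and each was lost without GFP+ replicate 1 (adjusted p = 0.0545, 0.0584 and 0.0561). Pkp2, the gene of a plakophilin of the plaque, was at 9.62 and 9.57 in GFP- and 9.08 and 8.90 in GFP+ cells (log2 difference 0.60, adjusted p = 0.0375), and did not pass without GFP+ replicate 1 (0.0705) or replicate 2 (0.0728). Dsc2, the other desmosomal cadherin, had a log2 difference of 0.55 (adjusted p = 0.0612), Pkp3 one of 0.50 (0.0883) and Pkp1 one of 0.19 (0.357). In these 3 too, both GFP- arrays lay above both GFP+ arrays. Pkp1, at 4.47 and 4.46 in GFP- and 4.15 and 4.41 in GFP+ cells, was dim on every array.

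The keratins differed little. Krt8 and Krt18, the filament pair of simple epithelia and neighbours on chromosome 15, were bright in both groups. Krt8 was at 10.53 and 10.71 in GFP- and at 10.16 and 10.14 in GFP+ cells (log2 difference 0.47, limma adjusted p = 0.0578), and Krt18 was at 10.36 and 10.45 in GFP- and at 10.05 and 10.05 in GFP+ cells (log2 difference 0.35, adjusted p = 0.0680). Both fell just short of the threshold, and another probe set of Krt8 passed (log2 difference 0.48, adjusted p = 0.0359). Under other settings Krt8 passed with dim probe sets left out, with centring, with the intensity trend, with averaged probe sets and with quantile normalization (adjusted p = 0.0089 to 0.0499), and Krt18 with dim probe sets left out, the trend or averaged probe sets (0.0097 to 0.0400). Krt7 was the keratin that passed by its brightest probe set, at 4.59 and 4.49 in GFP- and 4.11 and 4.08 in GFP+ cells (log2 difference 0.45, adjusted p = 0.0459), values under 5 on all arrays, and it was lost without GFP+ replicate 1 (0.145) or replicate 2 (0.107), with the intensity trend (0.0565) and with quantile normalization (0.0528). Krt19 was at 5.11 and 5.69 in GFP- and 4.73 and 4.86 in GFP+ cells (log2 difference 0.61, adjusted p = 0.166), with GFP- arrays that lay farther apart than those of most genes here.

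Among the epithelial proteases and their inhibitors, St14, the gene of the membrane protease matriptase, was at 7.90 and 7.94 on the GFP- arrays and at 5.70 and 5.93 on the GFP+ arrays, a 4.31-fold difference (log2 2.11, SE 0.10, limma adjusted p = 0.00611). Its inhibitor gene Spint2 was at 11.34 and 11.38 in GFP- and at 10.59 and 10.46 in GFP+ cells (log2 difference 0.83, adjusted p = 0.0162, and 0.0509 without GFP+ replicate 1). The related inhibitor gene Spint1 was at 8.88 and 8.77 in GFP- and at 8.70 and 8.61 in GFP+ cells (log2 difference 0.17, adjusted p = 0.289). The protease gene thus differed most and Spint1 least.

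Rab25, a small GTPase of apical recycling in epithelia, was at 7.44 and 7.42 in GFP- and at 6.59 and 6.40 in GFP+ cells (log2 difference 0.93, limma adjusted p = 0.0161). Crb3, the gene of an apical polarity protein, had 3 probe sets of like signal. The one with the highest mean was at 7.43 and 7.98 in GFP- and 6.57 and 6.88 in GFP+ cells (log2 difference 0.98, adjusted p = 0.0738), and another was at 7.87 and 8.29 in GFP- and 6.01 and 6.49 in GFP+ cells (log2 difference 1.82, adjusted p = 0.0239). All 3 put both GFP- arrays above both GFP+ arrays, so the call for Crb3 turned on the choice of probe set.

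Both epithelial splicing regulators, which switch exons such as those of Fgf receptors and other surface proteins, were higher in GFP- cells. Esrp1 was at 9.94 and 10.06 on the GFP- arrays and at 8.53 and 8.79 on the GFP+ arrays (log2 difference 1.34, SE 0.12, limma adjusted p = 0.0127). Esrp2 was at 6.23 and 6.26 in GFP- and at 5.36 and 5.67 in GFP+ cells (log2 difference 0.73, adjusted p = 0.0434), and did not pass without GFP+ replicate 1 (0.0887). Its other probe set had a log2 difference of 0.09 (adjusted p = 0.477). The arrays give 1 value for each probe set and do not show which exons were used.

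The grainyhead-like factors Grhl2 and Grhl3 differed in opposite directions. Grhl2, an activator of Cdh1 and of claudin genes, was at 8.15 and 8.13 on the GFP- arrays and at 6.50 and 6.53 on the GFP+ arrays, a 3.09-fold difference (log2 1.63, SE 0.07, limma adjusted p = 0.00551). Grhl3, a related factor of surface ectoderm that is required for closure of the neural tube, was at 4.69 and 4.70 in GFP- and at 5.70 and 5.83 in GFP+ cells, 2.10-fold lower in GFP- cells (log2 -1.07, SE 0.08, adjusted p = 0.0101). In both genes the arrays of a group lay close together and the groups were well apart, although Grhl3 was under 5 in GFP- cells, and whether such values lie above background was not tested. The other probe sets of Grhl2 had log2 differences of 0.30, 0.11 and -0.12 and did not pass, and the mean of its probe sets differed by 0.48. Grhl1, the related factor from the other lists, was named after its values were seen and had a log2 difference of 0.50 (adjusted p = 0.0517). Ovol2, a repressor of mesenchymal genes, was dim as well, at 4.96 and 4.96 in GFP- and 4.35 and 4.64 in GFP+ cells (log2 difference 0.47, adjusted p = 0.0933).

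Zeb1, a repressor of Cdh1 and other epithelial genes, was lower in GFP- cells. By its brightest probe set it was at 8.68 and 8.78 in GFP- and at 9.67 and 9.65 in GFP+ cells (log2 difference -0.93, limma adjusted p = 0.0117, and 0.0550 without GFP+ replicate 1). Another probe set was at 4.53 and 4.55 in GFP- and 7.08 and 6.68 in GFP+ cells (log2 difference -2.34, adjusted p = 0.00785), and its other 2 probe sets did not pass. Snai2, of the Snai family, was at 6.40 and 6.43 in GFP- and at 6.92 and 6.88 in GFP+ cells (log2 difference -0.48, adjusted p = 0.0339), and did not pass without GFP+ replicate 1 (0.123) or replicate 2 (0.0735). The other Snai2 probe set did not pass (log2 difference -0.48, adjusted p = 0.0537). Snai1 had a log2 difference of 0.31 (adjusted p = 0.155). Zeb2 had 5 probe sets that did not go one way, at 0.37 for the brightest (adjusted p = 0.238) and from -0.306 to -0.999 for the others, 1 of which passed (-0.44, adjusted p = 0.0428), but not without GFP+ replicate 1 (0.148) or replicate 2 (0.0940). Of this list of 10 repressors and mesenchymal genes, 1 was higher, Vim (0.71, adjusted p = 0.0210), the gene of an intermediate filament also found in neural progenitors, and 3 were lower. The third of these was Fn1, the gene of fibronectin, named after its values were seen (-0.42, adjusted p = 0.0424). The Vim and Fn1 calls were lost without GFP+ replicate 1 (0.0635 and 0.139), and that of Fn1 also without replicate 2 (0.0978).

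**Figure D4:**
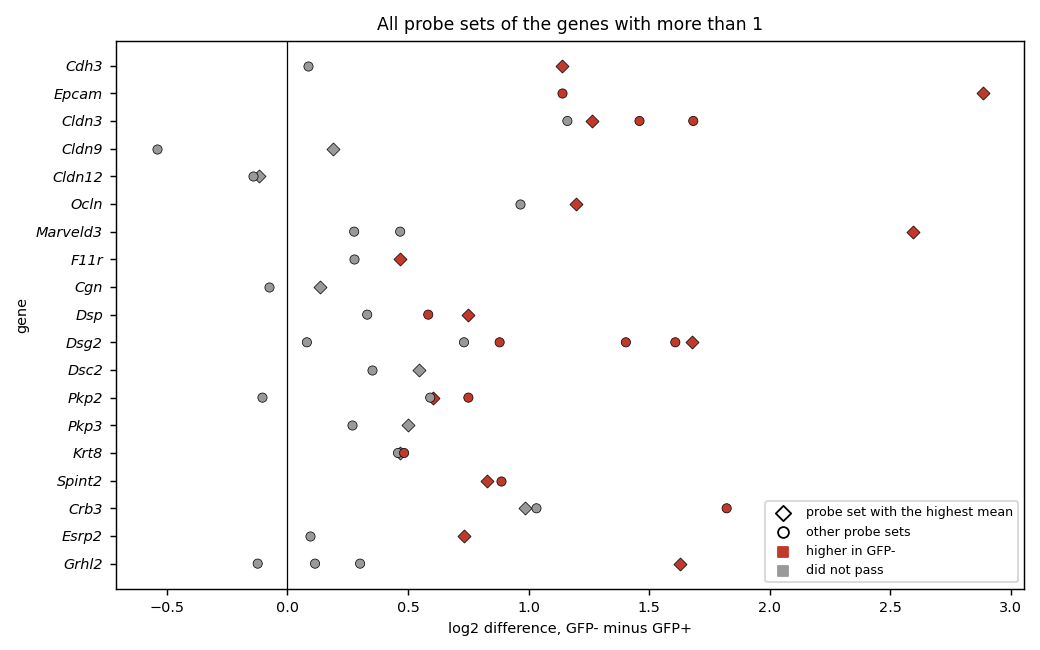
GFP- minus GFP+ difference in log2 signal (x axis) for every probe set of the 19 genes with more than 1 (y axis), with a diamond for the probe set of the highest mean and circles for the others, red where higher in GFP- cells at an adjusted p under 0.05 and grey otherwise. Of the 33 circles, 11 are red, 0 are lower at that threshold and 5 lie below 0.

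Probe sets of one gene often differed in size and, in Cldn9, Grhl2, Cgn and Pkp2, also in direction. The other probe set of Cgn differed by -0.07 (limma adjusted p = 0.586). Pkp2 had 4 probe sets with log2 differences from -0.10 (adjusted p = 0.686) to 0.75 (adjusted p = 0.0311). Of all 72 probe sets of the set, 35 were higher in GFP- cells, where 3.64% of all probe sets were, and 1 was lower, where 3.82% were. Both GFP- arrays lay above both GFP+ arrays in 61 probe sets, where 32.5% of all did so, and below them in 5, where 24.9% did. In Epcam the probe set with the highest mean differed by 2.89 and the other one by 1.14 (limma adjusted p = 0.0123). Cldn3 had 4 probe sets with log2 differences from 1.16 to 1.68, 3 of which passed, and Dsg2 had 6 from 0.08 to 1.68, 4 of which passed. Cdh3, Esrp2, F11r, Grhl2, Marveld3 and Ocln were each called by their brightest probe set alone. The other probe sets had log2 differences of 0.28 and 0.47 in Marveld3, 0.28 in F11r (adjusted p = 0.223) and 0.97 in Ocln (0.0501), and those of Cdh3, Esrp2 and Grhl2 are given above. Krt8 and Crb3 passed only at a probe set that was not the brightest, so 27 of the 39 genes passed by some probe set. Some probe sets, such as 2 of Cldn3, are of types that can match more than 1 transcript (suffix x or s). The Krt8 and Snai2 probe sets that passed have suffix x, as has the brightest of Spint2. The brightest of Jup, Dsp and Pkp2 have suffix s, as has the Crb3 probe set that passed. The part of such probe sets in the values was not tested.

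Other genes of junctions and epithelia were taken from 9 lists. Of these 100 genes, 95 were measured by a probe set of their own. In GFP- cells 11 passed limma as higher, where 5.4% of all genes did, and 5 as lower, where 2.63% did. The median log2 difference of the 95 genes was 0.09, beside 0.05 over all genes. Of the 13 other claudins measured, 0 passed limma and 0 had an unadjusted p under 0.05, and the brightest, Cldn22, differed by -0.04 (adjusted p = 0.825). Of 15 other keratins, 0 passed limma and 2 had an unadjusted p under 0.05, and the brightest, Krt42, differed by 0.01 (adjusted p = 0.962). The claudins that passed were all among the 7 of the set, which were chosen with earlier results of these data known. Of the 13 others, 7 had values under 5 on all arrays. The difference between the set and the other claudins was not tested.

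Of 12 other tight junction genes 2 passed as higher in GFP- cells and 1 as lower. Cgnl1, the gene of paracingulin, was at 9.73 and 9.91 in GFP- and 8.14 and 8.32 in GFP+ cells (log2 difference 1.59, limma adjusted p = 0.00859), unlike its relative Cgn. Ildr1, which encodes a protein of tricellular contacts, differed by 1.12 (adjusted p = 0.0169, and 0.0729 without GFP+ replicate 1) and was under 5 on all arrays. Magi3, a scaffold, was lower (-0.53, adjusted p = 0.0376), but not without GFP+ replicate 1 (0.128) or replicate 2 (0.0887), and Amot, a scaffold too and the brightest that did not pass, differed by 0.04 (adjusted p = 0.760). Of 12 polarity genes 2 were higher, Patj (0.91, adjusted p = 0.0304), the partner of Crb proteins, and Llgl2 (0.68, adjusted p = 0.0330), a basolateral factor. Both were lost without GFP+ replicate 1 (0.108 and 0.101) and replicate 2 (0.0522 and 0.0818). Llgl1, a relative of Llgl2, differed by -0.24 (adjusted p = 0.117).

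Of 11 genes of the adherens junction core and the nectins 1 was called, the N-cadherin gene Cdh2, which was lower in GFP- cells (log2 difference -0.96, limma adjusted p = 0.0267, and 0.103 and 0.0644 without GFP+ replicate 1 and 2). The core component Ctnnb1, which encodes beta-catenin and binds both E-cadherin and N-cadherin, differed by -0.0047 (adjusted p = 0.980). Of 7 other desmosome and plakin genes Ppl, the gene of periplakin, was higher (0.74, adjusted p = 0.0203, and 0.0687 and 0.0513 without GFP+ replicate 1 and 2), and Pkp4 differed by -0.03 (adjusted p = 0.828). Of 7 other membrane serine proteases 3 were higher. Tmprss2 was at 7.47 and 7.58 in GFP- and 5.51 and 5.97 in GFP+ cells (log2 difference 1.79, adjusted p = 0.0150). Prss8, the gene of prostasin, which acts together with matriptase in epithelia, differed by 1.12 (adjusted p = 0.0128), and Hpn, the gene of hepsin, by 0.84 (adjusted p = 0.0336, and 0.124 and 0.0784 without GFP+ replicate 1 and 2). Tmprss6 differed by 0.19 (adjusted p = 0.423). Of 8 other transcription factors of epithelia, Tfcp2l1 (1.51, adjusted p = 0.0224) and Klf5 (1.24, adjusted p = 0.0215) were higher, both of which are also factors of ESCs, and Klf5 was lost without GFP+ replicate 1 (0.0655) and replicate 2 (0.0522). Klf4 was at 8.47 and 8.50 in GFP- and at 8.31 and 6.97 in GFP+ cells (log2 difference 0.84, adjusted p = 0.320), with GFP+ arrays far apart, and it passed without GFP+ replicate 1 (0.0344).

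**Figure D5:**
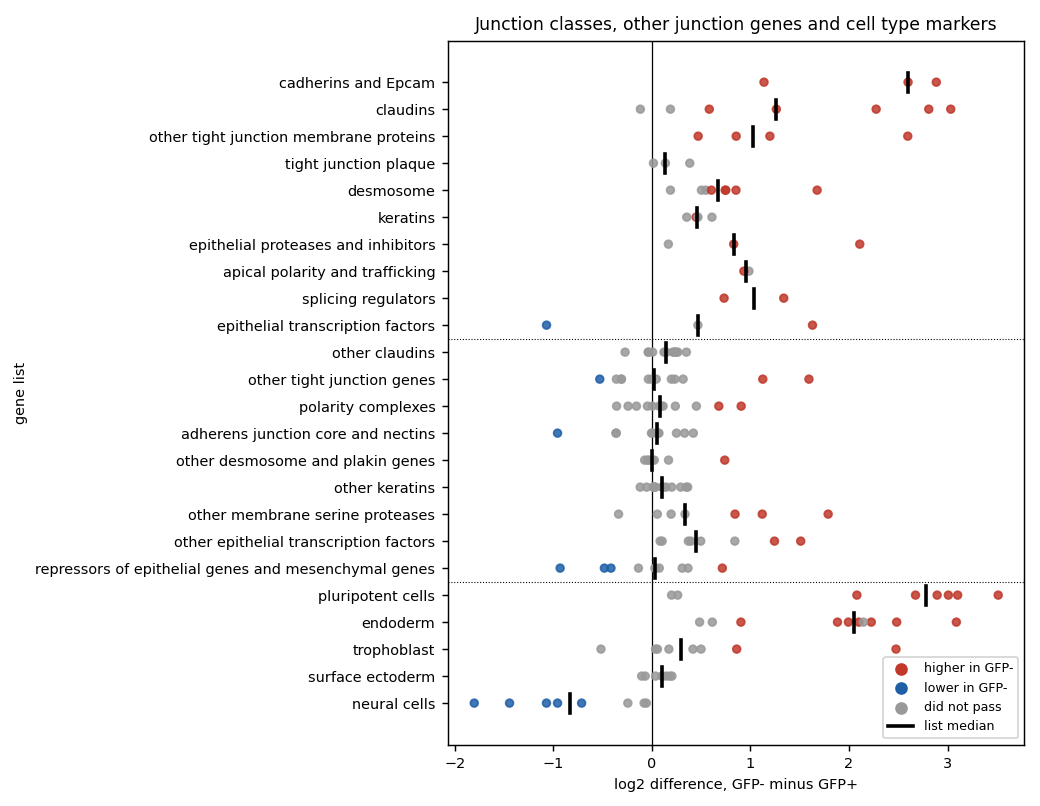
GFP- minus GFP+ difference in log2 signal (x axis) of the genes in 10 structural classes, 9 lists of other junction genes and 5 lists of cell type markers (y axis, parted by dotted lines), red where higher and blue where lower in GFP- cells at an adjusted p under 0.05. Black bars are list medians, at 2.60 for the cadherins and Epcam, 0.14 for the plaque, 0.46 for the keratins, 0.10 for the other keratins and -0.84 for neural cells.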

How the data were processed

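RNA of day 4.5 Rax::GFP- and Rax::GFP+ cells was measured on 4 Affymetrix mouse arrays, 2 per group. The authors summarized the arrays by RMA, and the deposited table holds 1 log2 value per probe set and array. The submitters' processing notes name R 2.13.0. Array medians were 5.84 and 5.86 in GFP- and 5.89 and 5.88 in GFP+ cells, within a range of 2.20 to 15.1. RMA normalizes the arrays to each other, although their medians still differed slightly, so the values cannot be read for total RNA. The number of arrays limits the precision: an exact permutation test of 2 against 2 cannot go below p = 0.333.

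The 45101 probe sets were compared as GFP- minus GFP+ with limma 3.58.1 (R 4.3.3), without a replicate block or a filter, and the fit was checked on simulated data. Adjusted p-values are Benjamini-Hochberg values over the whole table, 64 control probe sets included. The platform annotation gave 1 symbol to 34958 probe sets, several to 932 and none here to 9211, and a gene was named only from the first kind. All 39 symbols are in the GRCm38.p6 gene table, which served for neighbours.

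Summed signals are sums of the linear values of a list's genes. The 39 genes, the lists, the alternatives and the motifs were chosen with earlier results of these data known, so no list was tested as a set. Named are all 39 genes and, of each other list, up to 3 genes with the largest differences among those that passed and the brightest that did not. Of the marker lists, genes that did not pass are named only for neural cells and, with Gata3, for trophoblast. Sequences of 2 of the 39 genes, on chromosome 18, were not used here. The alternatives were a replicate block, leaving out probe sets under 5 on all but 1 array or on every array, 2 rescalings, a variance trend, array weights, the mean of a gene's probe sets, and leaving out each array.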

Additional observations from a re-analysis of the deposited data

How the results depend on the processing

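The direction of the 39 genes held under every alternative except in Cldn9 and Tjp1, while the calls depended on the arrays used. Leaving out 1 array at a time gave 0 to 2978 calls over all probe sets, 0 to 30 for the 72 probe sets and 0 to 20 for the 39 genes, the 0 in each case without a GFP- array, and a median log2 difference of 0.71 to 0.79. With the replicate number as a block, limma called 0 of all probe sets, 0 of the 72 and 0 of the 39 genes. The 2 arrays that share a number did not deviate together (correlation of deviations -0.05), which over 2 pairs neither shows nor excludes a shared experiment, and the labels do not say that a number marks one. The blocked fit has fewer residual degrees of freedom. With an intensity trend in the variance, 6962 probe sets passed over the whole table, and 28 of the 39 genes. When a gene's probe sets were averaged, the median log2 difference of the 39 genes was 0.58 and 29 genes passed. Cldn9 then had a log2 difference of -0.18, and Tjp1 had one of -0.022 when GFP+ replicate 1 was left out and of 0.052 when GFP+ replicate 2 was, none of which passed. Centring, quantile normalization, array weights and the filter on dim probe sets gave 25 to 27 called genes, and the filter removed 3 of the 39. With 2 arrays per group, small differences in dim genes such as Pkp1, Ovol2 and Cldn9 did not pass. The calls of Krt7, Krt8, Krt18, Dsc2, Crb3, Tjp3 and Pkp2 changed with the setting. Dsc2 passed with the dim filter, centring, the trend and averaged probe sets (limma adjusted p = 0.0194 to 0.0466). Crb3 passed with the trend (0.0243) and averaged probe sets (0.0158). With averaged probe sets Tjp3 passed (0.0384) and Pkp2 was lost (0.0566).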
